A study of Mus musculus with 6 samples.

Results

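The chemokine and interleukin genes, with their receptors, were taken from RNA-seq of mouse reprogrammable cells as every row whose symbol begins with Ccl, Cxcl, Cx3cl, Ccr, Cxcr or Il followed by a digit. This gave 103 of the 16982 genes listed. They were sorted by role into 53 ligands (16 CC chemokines, 5 CXC chemokines with an ELR motif, 8 other CXC or CX3C chemokines and 24 interleukins), 43 receptors (13 for chemokines and 30 for interleukins), 4 antagonists, binding proteins or decoy receptors, and 3 other genes that carry an Il symbol. The cells were mouse embryonic fibroblasts (MEF) on the C57BL/6 background, harvested on day 3 after infection with pMXs retroviruses carrying OCT4, SOX2, KLF4 and C-MYC (OSKM). Libraries WT1, WT2 and WT3 are labelled wild type (Rnf20+/+), and KO1, KO2 and KO3 are Rnf20 knockout (Rnf20-/-), lacking the ubiquitin ligase that places ubiquitin on histone H2B. The knockout used Rnf20 Flox/Flox MEF with the ubiquitously expressed, tamoxifen-inducible Tamoxifen-cre. The methods describe 4-OH tamoxifen for the knockout, the labels give all samples as untreated, and neither states whether the WT cells received the drug. In the protocol, infected cells were moved onto mitomycin C treated MEF feeder layers, and it is not stated whether feeder RNA was kept apart. Neither source says whether the 3 libraries of a genotype came from separate cultures, so p-values measure only the spread between these libraries.

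Chemokines are small secreted proteins that direct cell migration through G protein-coupled receptors. CC chemokines draw mainly monocytes and lymphocytes, while CXC chemokines with the ELR motif act on neutrophils through CXCR2. Interleukins signal through receptor chains at the cell surface. Those of the IL-1 family act through MyD88 and the transcription factor NF-kB, and those of the IL-6 family act through the shared chain gp130 and the JAK and STAT proteins. Fibroblasts are a known source of several of these ligands, among them CCL2, CXCL1, CXCL12 and IL-6.

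Libraries held 20545442 to 21746898 counts, and 3 counts, the floor used here, equal 0.142 to 0.143 CPM (counts scaled to the TMM-normalized library size). Rnf20 itself had 107.1, 106.8 and 105.6 CPM in WT1 to WT3 and 18.71, 18.52 and 16.38 CPM in KO1 to KO3. KO3 stood apart from its group. The chi-square per gene between its counts and those of KO1 and KO2 was 92.8 and 102, against 8.59 between KO1 and KO2 and 6.06 to 8.96 between WT libraries. For this reason KO3 is set apart from KO1 and KO2. For members, a result without it is also given where that changed the call, or moved the value of a called member by over 1.5 times. Values of members without a call could move further than that. The Y-linked gene Ddx3y had 0 counts in KO1 and KO3 and 94.43 to 127.5 CPM in the other libraries. Uty, also Y-linked, had 0 counts in KO1 and KO3 and 29.62 to 31.18 CPM in the others. The KO libraries were thus not drawn from a common pool of cells, and Y-linked transcripts were unevenly split between the genotypes. The part of this imbalance in the results was not tested. Of the fibroblast markers, Pdgfra had 222.2, 181.3 and 192.1 CPM in WT and 97.71, 108.3 and 49.87 CPM in KO. Thy1 had 157.2 to 192.1 CPM in WT and 78.44 to 88.83 CPM in KO. In contrast, Fn1 (3458 to 4034 CPM in WT, and 5542, 6978 and 4049 CPM in KO) and Vim (2655 to 3058 CPM in WT and 3448 to 3654 CPM in KO) lay above WT in every knockout library, without a call. The 10 fibroblast markers together held 21630 CPM in KO3 and 30340 to 39860 CPM in the other libraries, so the cells carried the markers of their labelled origin. In KO3, however, 6 of the 10 lay below every WT library and 3 above. The lower ones included Lum (21.29 CPM, against 134.4 to 161.6 in WT) and Col3a1 (1899 CPM, against 5255 to 5944).

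The members took 0.149% to 0.159% of all counts in 5 libraries and 0.292% in KO3. Of the 103 members, 62 reached 1 CPM in at least 1 library and 36 had no library above 10 counts. The filter on low counts left 55 members for testing among 13386 genes. A member that passed only because it was high in 1 group had to differ, and the 48 members left out are accounted for by their counts alone. The ligands summed to 453.1, 503.8 and 469.0 CPM in WT1 to WT3, to 477.8 and 461.2 CPM in KO1 and KO2, and to 1628 CPM in KO3. The receptors summed to 911.4 to 925.9 CPM in WT, to 821.4 and 906.1 CPM in KO1 and KO2, and to 1063 CPM in KO3. Thus the summed ligand level of KO1 and KO2 lay within the WT range, and that of KO3 lay above all other libraries. In RNA from bulk cells, fewer cells of a type and less RNA per cell cannot be told apart.

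**Figure D1:**
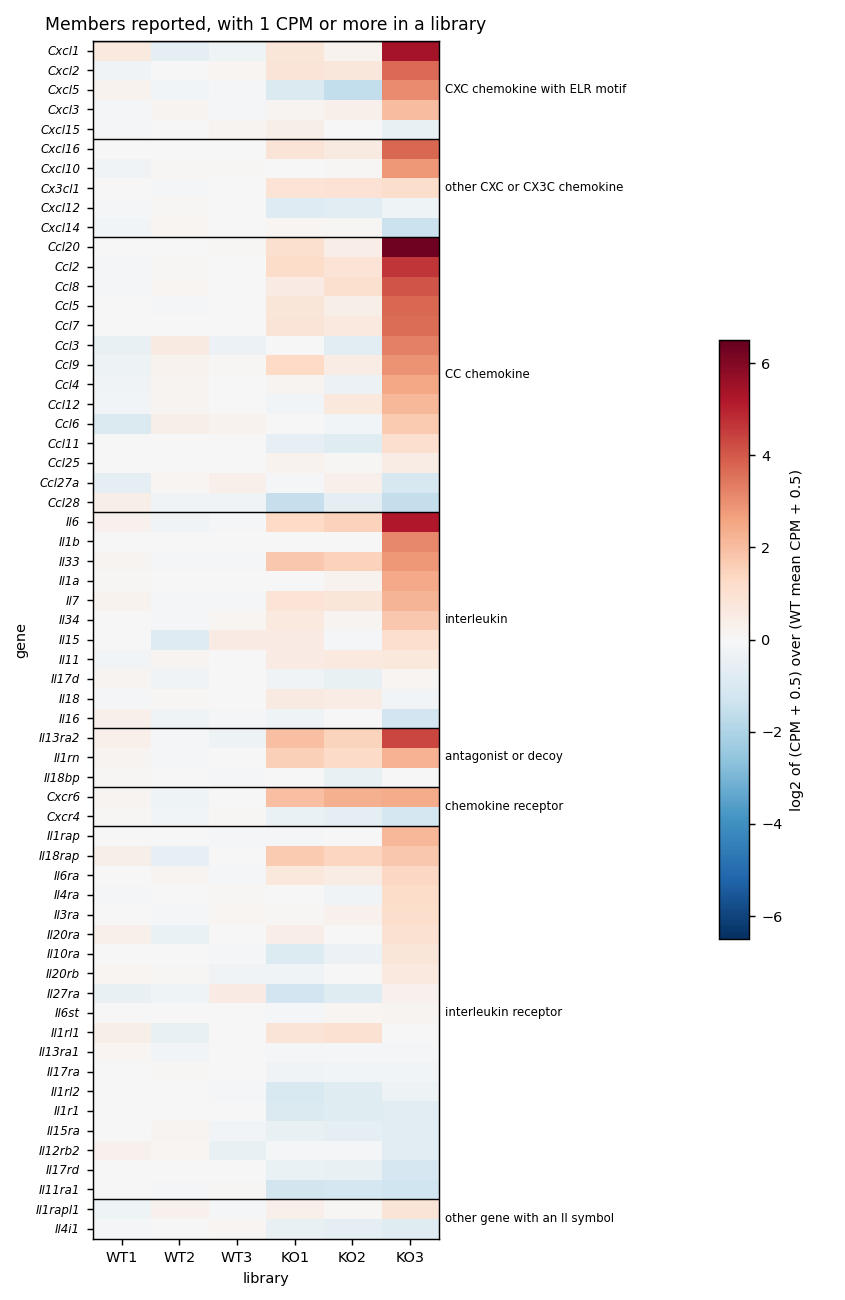
Colour gives log2 of (CPM + 0.5) over (WT mean CPM + 0.5) for 61 members with at least 1 CPM in a library, with libraries as columns and genes grouped by role. The KO3 column is red for most chemokines and interleukins, while the KO1 and KO2 columns are paler and the interleukin receptors show both colours.

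KO3 lay more than 2-fold above both KO1 and KO2 for 28 of the 62 members with at least 1 CPM in a library. Over all 13279 genes at that level the share was 4.43%. It lay more than 2-fold below both for 4 members (Cxcl14, Il16, Ccl27a and Il12rb2), where the share over all genes was 5.63%. These comparisons rest on 1 library and carry no test. The level of 1 CPM could be reached in KO3 alone, so a gene could enter through the library in which it was high. Among the 28, this held for Ccl4, Ccl5, Ccl11, Ccl12, Ccl20, Cxcl2, Cxcl3, Cxcl10, Il1a, Il1b and Il10ra. The share of members is therefore no test of the class. The 28 comprised 23 of the 35 ligands at that level but 4 of the 22 receptors (Il1rap, Il4ra, Il10ra and Il27ra), together with the decoy receptor gene Il13ra2. By role they included 11 of 14 CC chemokines, 4 of 5 CXC chemokines with an ELR motif, 6 of 11 interleukins, 2 of 5 other CXC or CX3C chemokines and 0 of 3 chemokine receptors. The 28 summed to 135.8 to 137.2 CPM in WT, 194.1 and 163.3 CPM in KO1 and KO2, and 1556 CPM in KO3. In KO3, 27 of the 28 also lay above every WT library, the exception being Il27ra. In KO1 and KO2, 14 of the 28 lay above every WT library, 4 lay below every WT library (Ccl11, Cxcl5, Il10ra and Il27ra), and 10 fell within or across the WT range.

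The promoters of 3 CXC chemokines with an ELR motif, Cxcl1, Cxcl2 and Cxcl3, are shown because they share a short sequence, and those of Ccl20 and Il6 because they hold related ones. Of the same class, Cxcl15 had no match, and for Cxcl5 no window was used here. Each line gives the last 150 bases before the RefSeq transcription start on GRCm38.p6, read along the gene, with capitals for a match on either strand to the kappaB consensus, the sequence bound by NF-kB.
Cxcl1, chr5:90891095-90891244, plus strand: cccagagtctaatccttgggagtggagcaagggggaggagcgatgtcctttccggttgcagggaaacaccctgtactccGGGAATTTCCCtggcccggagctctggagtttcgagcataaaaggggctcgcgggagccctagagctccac
Cxcl2, chr5:90903749-90903898, plus strand: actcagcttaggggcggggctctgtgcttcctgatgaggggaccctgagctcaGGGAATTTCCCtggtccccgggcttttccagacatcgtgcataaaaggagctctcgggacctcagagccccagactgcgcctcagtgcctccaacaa
Cxcl3, chr5:90785951-90786100, plus strand: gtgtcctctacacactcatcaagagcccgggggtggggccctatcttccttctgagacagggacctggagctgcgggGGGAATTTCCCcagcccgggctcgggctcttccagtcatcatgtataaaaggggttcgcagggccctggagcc
Ccl20, chr1:83116616-83116765, plus strand: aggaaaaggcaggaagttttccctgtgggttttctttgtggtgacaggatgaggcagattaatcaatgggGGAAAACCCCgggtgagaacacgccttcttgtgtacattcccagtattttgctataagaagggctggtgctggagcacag
Il6, chr5:30012964-30013113, plus strand: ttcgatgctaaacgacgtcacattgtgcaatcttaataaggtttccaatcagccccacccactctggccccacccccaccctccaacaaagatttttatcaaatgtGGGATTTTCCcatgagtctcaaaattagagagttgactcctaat
Il1b, shown as a member of the group without a match, chr2:129371140-129371289, minus strand: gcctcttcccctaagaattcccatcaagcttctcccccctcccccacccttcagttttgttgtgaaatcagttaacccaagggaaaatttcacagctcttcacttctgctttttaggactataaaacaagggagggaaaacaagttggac

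Cxcl1, Cxcl2 and Cxcl3 held the same run of bases, GGGAATTTCCC, in which the consensus matches on both strands and the matches overlap by all but 1 base. The matches begin 71, 97 and 73 bases before the start. In the 250 bases before the start, the kappaB consensus was found in 3.9% of 32851 RefSeq windows (1281 windows). A RefSeq window was available for 77 of the 103 members and for 17 of the 28 members high in KO3. None was available for Ccl2, Ccl7 and Cxcl5, which are among the 28. Of these 17, 7 held a match (Cxcl1, Cxcl2, Cxcl3, Cxcl10, Ccl9, Ccl20 and Il6). Of 31 other members with at least 1 CPM in a library, 2 held one (Il16 and Il1r1). The AP-1 motif TGANTCA, read on both strands and with each position counted once, was found in 6.75% of all windows, in 5 of the 17 (Il13ra2, Ccl9, Il1a, Il6 and Cxcl10) and in 6 of the 31. A member counted if any of its windows held a match, so these counts are not on the scale of the shares over all windows. The 17 and the 31 were split by their KO3 values, with the limit given above for members that reached 1 CPM in KO3 alone. A match describes these letters only, and binding was not measured here.

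Among the CC chemokines, Ccl2 (ENSMUSG00000035385), whose product attracts monocytes, had 20.4, 23.02 and 21.5 CPM in WT1 to WT3 and 49.97, 40.26 and 551.6 CPM in KO1 to KO3. All knockout libraries lay above all WT libraries, and KO3 lay 12.22-fold above the mean of KO1 and KO2. Its fitted log2 fold change of KO over WT was 3.31 (SE 1.04, adjusted p = 0.0497, quasi-likelihood test of edgeR, adjusted by Benjamini-Hochberg over 13386 genes). Without KO3 the change was 1.06 and the adjusted p of the same edgeR test was 2.49e-05. Ccl7, a further monocyte attractant, had 20.89 to 21.58 CPM in WT, 38.38 and 33.57 CPM in KO1 and KO2, and 268.4 CPM in KO3. It was not called with all libraries (adjusted p = 0.0613 by edgeR) and was called higher without KO3 (log2 fold change 0.76, adjusted p = 6.53e-05). Ccl8 showed the same arrangement at lower counts, with 14 to 19 counts in WT, 29 and 45 in KO1 and KO2, and 451 in KO3, and it too was not called with all libraries (adjusted p = 0.0559) and was called without KO3 (adjusted p = 0.0230, edgeR). Ccl9 had 2.282, 3.56 and 3.179 CPM in WT and 7.971, 4.321 and 26.34 CPM in KO, and was called higher (log2 fold change 2.1, SE 0.659, adjusted p = 0.0493, edgeR). Without KO3 its change was 1.03 (adjusted p = 0.0141, edgeR).

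Several other CC chemokines were at or near the floor outside KO3. Ccl20, the ligand of CCR6, had 0, 0 and 1 count in WT1 to WT3, 12 and 4 counts in KO1 and KO2, and 845 counts in KO3, which is 40.25 CPM (95% exact Poisson interval 37.58 to 43.05, counting error only). It failed the filter on low counts and was not tested. Ccl5, an attractant of T cells and monocytes, had 0 or 1 count in WT, 9 and 4 counts in KO1 and KO2, and 138 counts in KO3. These genes were low in KO1 and KO2 and only a few counts above the WT libraries there. By contrast, Ccl3 (9, 30 and 10 counts in WT, 16 and 6 in KO1 and KO2, 252 in KO3) and Ccl4 (7 to 12 counts in WT, 12 and 5 in KO1 and KO2, 106 in KO3) had KO1 and KO2 values that did not separate from WT. Neither was called (adjusted p = 0.191 and 0.181, edgeR). Ccl6 and Ccl12 likewise overlapped with WT in KO1 and KO2 and had 74 and 46 counts in KO3.

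Ccl11, which encodes the eosinophil attractant eotaxin, had 16 counts in each WT library, 8 and 5 counts in KO1 and KO2, and 46 counts in KO3. KO1 and KO2 lay below and KO3 above WT, and its fitted change turned from 0.30 (adjusted p = 0.789) to -1.28 (adjusted p = 0.0452) without KO3 (edgeR). Ccl28, an epithelial chemokine, moved the other way in all knockout libraries, with 3.375, 2.089 and 2.088 CPM in WT and 0.5728, 1.519 and 0.5239 CPM in KO (log2 fold change -1.52, SE 0.476, adjusted p = 0.0487, edgeR). Ccl25 had 64 to 68 counts in WT and 79, 71 and 97 counts in KO and was not called (adjusted p = 0.259, edgeR). Ccl27a had 6 to 22 counts in WT, 14 and 21 in KO1 and KO2, and 2 in KO3. Its exons overlap those of Il11ra1 on the other strand, and the sources used here do not state whether counting used the strand.

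Among the ELR chemokines, Cxcl1 had 5.8, 2.136 and 2.847 CPM in WT1 to WT3, 6.444 and 4.273 CPM in KO1 and KO2, and 171.6 CPM in KO3, which lay 32.02-fold above the mean of KO1 and KO2. KO1 and KO2 overlapped with WT. It was not called with all libraries (adjusted p = 0.0767) or without KO3 (adjusted p = 0.224, edgeR). Cxcl2 had 0, 2 and 3 counts in WT, 11 and 10 in KO1 and KO2, and 143 in KO3, and Cxcl3 had 3 to 6 counts in WT, 6 and 8 in KO1 and KO2, and 48 in KO3. Neither passed the filter.

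Cxcl5 differed from these in KO1 and KO2. It had 19.3, 14.24 and 15.66 CPM in WT1 to WT3, 8.305 and 5.081 CPM in KO1 and KO2, and 143.2 CPM in KO3. Thus 2 knockout libraries lay below every WT library and the third above them. With all libraries the log2 fold change was 1.67 (SE 1.17, adjusted p = 0.3), and without KO3 it was -1.29 (adjusted p = 0.000541, edgeR). Cxcl15, the fifth gene of this class, had 21 to 28 counts in WT and 34, 23 and 14 counts in KO.

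**Figure D2:**
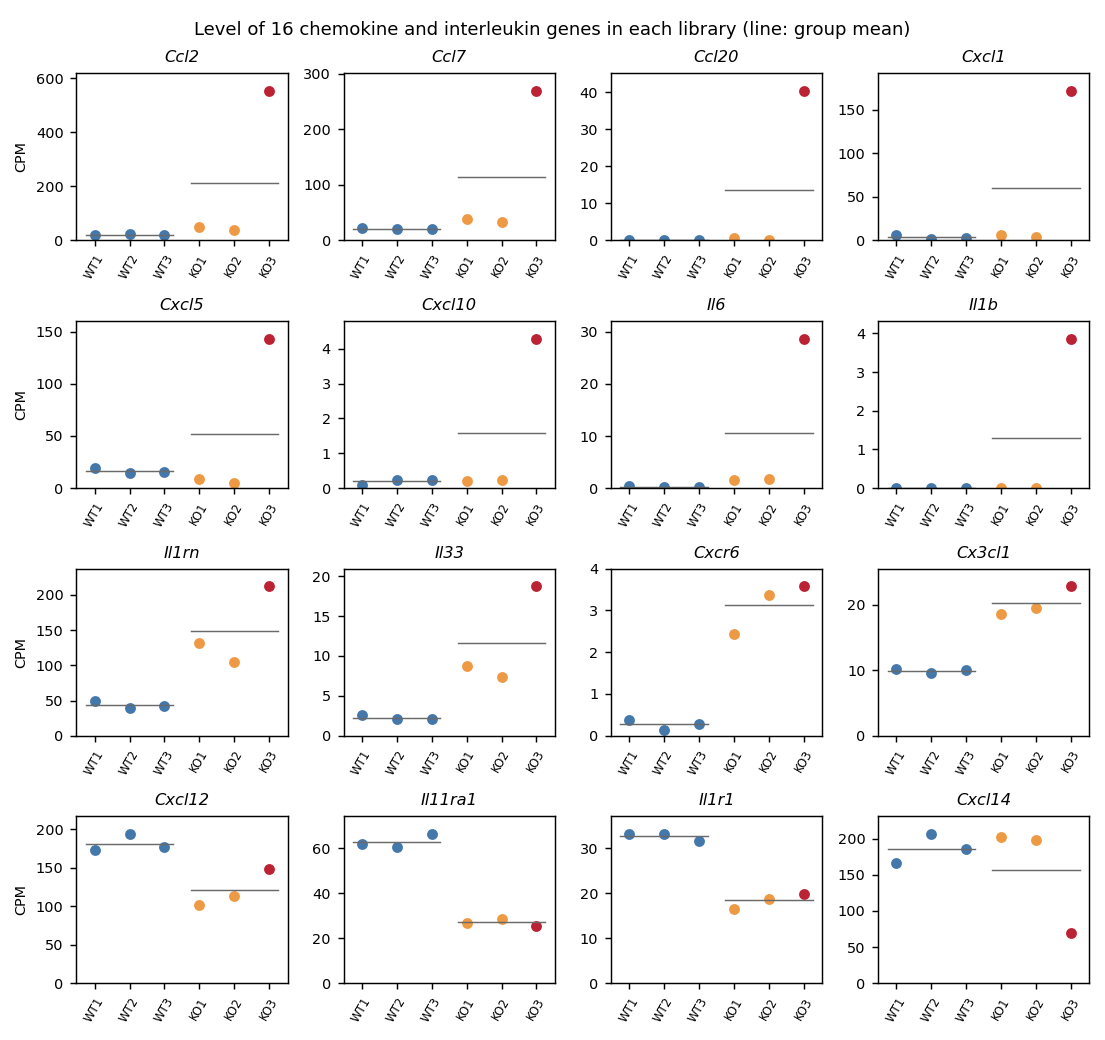
CPM of 16 members in each of the 6 libraries on linear axes that start at 0, with points for libraries (blue WT, orange KO1 and KO2, red KO3) and a line for each group mean. Ccl2, Ccl7, Ccl20, Cxcl1, Cxcl5, Cxcl10, Il6 and Il1b have KO3 far above the other libraries, whereas Cxcr6, Cx3cl1, Il11ra1 and Il1r1 have the knockout libraries close together and apart from WT.

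Among the other CXC and CX3C chemokines, levels in WT were high for Cxcl14 and Cxcl12. Per kilobase of gene length, Cxcl14 ranked first among members in WT (102.1 CPM per kb) and eighth in KO3 (38.3 CPM per kb). Cxcl14, a chemokine of epithelia and fibroblasts, had 166.7, 206.1 and 185.4 CPM in WT, 201.5 and 197.3 CPM in KO1 and KO2, and 69.82 CPM in KO3. KO1 and KO2 lay within the WT range, KO3 lay below every library, and no call was made (adjusted p = 0.622, edgeR). Cxcl12, the ligand of CXCR4, had 173.1, 194 and 177.2 CPM in WT and 101.6, 114 and 149 CPM in KO. The highest knockout library lay below the lowest WT library, and it fell by 0.58 on the log2 scale (SE 0.145, adjusted p = 0.0257, edgeR). Its receptor gene Cxcr4 had 30 to 38 counts in WT and 23, 20 and 10 counts in KO, and was not called (log2 fold change -0.99, adjusted p = 0.0773, edgeR).

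Cx3cl1 (ENSMUSG00000031778, chr8:94772009-94782427), which encodes the membrane-bound chemokine fractalkine, had 10.17, 9.541 and 10.01 CPM in WT and 18.57, 19.56 and 22.81 CPM in KO. The groups did not overlap and KO3 lay close to KO1 and KO2. It rose by 1.04 on the log2 scale (SE 0.113, adjusted p = 0.00328, edgeR). Without KO3 its change was 0.95 (adjusted p = 4.5e-05, edgeR), short of the 2-fold threshold of the study. Cxcl16, the membrane-bound ligand of CXCR6, had 2.092 to 2.23 CPM in WT, 4.296 and 3.466 CPM in KO1 and KO2, and 34.63 CPM in KO3. It was not called with all libraries (adjusted p = 0.0629) and was called higher without KO3 (log2 fold change 0.85, adjusted p = 0.0130, edgeR), and its exons overlap those of Zmynd15 on the other strand. Cxcl10, an interferon-induced chemokine, had 2 to 5 counts in WT, 4 and 5 in KO1 and KO2, and 90 in KO3.

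Of the chemokine receptors, 1 was called. Cxcr6 (ENSMUSG00000048521, chr9:123806475-123811760) had 0.3803, 0.1424 and 0.2847 CPM in WT, which is 3 to 8 counts, and 2.434, 3.371 and 3.572 CPM in KO, which is 51 to 75 counts. The groups did not overlap and the log2 fold change was 3.51 (SE 0.392, adjusted p = 0.00348, edgeR), or 3.40 without KO3. Among the receptors of chemokines that were high in KO3, Ccr2 and Cxcr2 were near the floor, while Cxcr6, the receptor of CXCL16, was above it in KO. Ccr2, the receptor for CCL2, had 4 to 13 counts in WT and 1 to 5 in KO. Cxcr2, the receptor for the ELR chemokines, had 0 counts in WT and 0, 3 and 2 counts in KO. Ccr6, the receptor for CCL20, was not among the genes listed in the counts, so no level can be given. Ccr1 and Ccr10 were tested without a call, and Ccr3, Ccr4, Ccr7, Ccr9, Cxcr3 and Cxcr5 had at most 5 counts in any library.

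In the IL-1 family, the antagonist gene Il1rn (ENSMUSG00000026981, chr2:24336853-24351494), whose product occupies the IL-1 receptor without signalling, had 49.35, 39.54 and 42.47 CPM in WT and 131.1, 105.1 and 212.1 CPM in KO. Every knockout library lay above every WT library, and it rose by 1.77 on the log2 scale (SE 0.259, adjusted p = 0.00603, edgeR). Per kilobase it ranked 8 among members in WT and 4 in KO1 and KO2 and in KO3. The agonist genes were at the floor outside KO3. Il1b had 0 counts in each of the other 5 libraries, which allows up to 0.142 to 0.143 CPM, and 81 counts in KO3 (3.858 CPM, 95% exact Poisson interval 3.064 to 4.795), and Il1a had 0 to 2 counts elsewhere and 49 in KO3. The signalling receptor gene Il1r1 had 33.14, 33.18 and 31.65 CPM in WT and 16.52, 18.85 and 19.91 CPM in KO, fell by 0.83 on the log2 scale (SE 0.0966, adjusted p = 0.00359, edgeR), and showed no overlap between groups. Its co-receptor Il1rap had 15.0 to 16.14 CPM in WT, 14.13 and 15.86 CPM in KO1 and KO2, and 71.39 CPM in KO3 (adjusted p = 0.202, edgeR). The antagonist was higher and the receptor lower in all knockout libraries, while the agonists and the co-receptor were higher in KO3 alone.

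Il33, which encodes a nuclear alarmin of the same family, had 2.662, 2.089 and 2.04 CPM in WT and 8.735, 7.36 and 18.72 CPM in KO, and rose by 2.36 on the log2 scale (SE 0.392, adjusted p = 0.00798, edgeR). The gene of its receptor, Il1rl1, had 24.34, 13.15 and 18.08 CPM in WT, 34.08 and 37.32 CPM in KO1 and KO2, and 19.15 CPM in KO3. It was not called with all libraries (adjusted p = 0.120) and was called without KO3 (log2 fold change 0.95, adjusted p = 0.00218, edgeR). Il1rl2, the IL-36 receptor gene, had 10.11 to 10.84 CPM in WT and 5.06, 6.03 and 8.335 CPM in KO and fell (log2 fold change -0.71, SE 0.198, adjusted p = 0.0351, edgeR). Il18rap, an IL-18 receptor chain, had 1.046, 0.3323 and 0.7118 CPM in WT and 3.341, 2.612 and 3.477 CPM in KO and rose (log2 fold change 2.16, SE 0.409, adjusted p = 0.0112, edgeR). The partner chain Il18r1 had at most 4 counts in any library, and neither Il18 (23 to 27 counts in WT, 42, 38 and 21 in KO) nor the gene of its binding protein, Il18bp (50 to 58 counts in WT, 37 to 55 in KO), was called.

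In the IL-6 family, Il6 (ENSMUSG00000025746) had 10, 4 and 5 counts in WT, 31 and 37 counts in KO1 and KO2, and 602 counts in KO3. KO1 and KO2 lay above every WT library, and KO3 lay 17.72-fold above their mean. The log2 fold change was 5.12 (SE 1.44, adjusted p = 0.0358, edgeR), and 2.41 without KO3 (adjusted p = 0.00147, edgeR). Il6ra, the binding chain, had 10.03, 11.58 and 9.396 CPM in WT and 16.71, 14.62 and 26.58 CPM in KO and rose by 0.90 (SE 0.236, adjusted p = 0.0288, edgeR, and 0.60 without KO3). Il6st, which encodes gp130, had 554.7 to 563.5 CPM in WT and 521.6, 601.8 and 634.1 CPM in KO, with a log2 fold change of 0.06 (SE 0.0893, adjusted p = 0.603, edgeR). It ranked second among members per kilobase in WT.

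Il11ra1 (ENSMUSG00000073889, chr4:41699989-41769474), the binding chain for IL-11, was the single member called lower at the thresholds of the study. It had 61.85, 60.57 and 66.2 CPM in WT and 26.87, 28.68 and 25.58 CPM in KO, with no overlap, and fell by 1.22 on the log2 scale (SE 0.0797, adjusted p = 0.00161, edgeR). Mouse genomes hold near-identical copies of this gene, so the division of its reads is uncertain. Il11 had 21 to 31 counts in WT and 41 to 48 in KO, higher in 3 of 3 knockout libraries, and missed the threshold (log2 fold change 0.80, adjusted p = 0.0536, edgeR).

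Among the other receptors, Il17rd, a membrane protein that also restrains FGF signalling, had 49.4 to 51.3 CPM in WT and 37.56, 36.61 and 23.48 CPM in KO and fell (log2 fold change -0.63, adjusted p = 0.0346, edgeR). Il15ra, which presents IL-15, had 4.555 to 6.028 CPM in WT and 2.953 to 3.58 CPM in KO and fell (log2 fold change -0.69, adjusted p = 0.0356, edgeR), while Il15 had 15, 4 and 26 counts in WT and 26, 14 and 43 in KO and was not called. Il13ra2, a decoy receptor for IL-13, had 0.523, 0.2848 and 0.1424 CPM in WT and 2.673, 1.757 and 16.19 CPM in KO and rose (log2 fold change 4.42, SE 1.05, adjusted p = 0.0220, edgeR). Without KO3 its change was 2.79 (adjusted p = 0.000861, edgeR). The signalling chains for IL-4 and IL-13 gave no call. Il4ra had 39.08 to 44.27 CPM in WT, 41.43 and 36.47 CPM in KO1 and KO2 and 99.11 CPM in KO3, and Il13ra1 had a log2 fold change of -0.09 (SE 0.096, adjusted p = 0.480, edgeR). Il3ra had 349 to 421 counts in WT, 399 and 460 in KO1 and KO2, and 863 in KO3, and Il17ra had 767 to 827 counts in WT and 680 to 709 in KO, which was no call with all libraries (adjusted p = 0.0869) and a call without KO3 (adjusted p = 0.0409, edgeR). Il12rb2 had 15 to 33 counts in WT and 23, 24 and 11 in KO. Of the receptors with fewer counts, Il10ra (8 or 9 counts in WT, 0 and 4 in KO1 and KO2, 22 in KO3) and Il27ra (7 to 26 counts in WT, 0 and 4 in KO1 and KO2, 20 in KO3) were lower than WT in KO1 and KO2.

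Of the remaining interleukins, Il7, a lymphoid growth factor, had 5 to 9 counts in WT and 21, 19 and 67 in KO and rose (log2 fold change 2.47, SE 0.639, adjusted p = 0.0280, edgeR, and 1.65 without KO3). Its receptor gene Il7r had at most 11 counts in any library. Il34, a ligand of the CSF1 receptor, had 38 to 47 counts in WT and 72, 49 and 165 in KO, and was not called (adjusted p = 0.0911, edgeR). Il16 had 117 to 181 counts in WT, 117 and 147 in KO1 and KO2, and 53 in KO3. Il4i1, which encodes an amino acid oxidase and no interleukin, had 97.89 to 110.3 CPM in WT and 58.39 to 72.27 CPM in KO and fell by 0.63 (SE 0.102, adjusted p = 0.00758, edgeR), with exons that overlap those of Nup62, Atf5 and Tbc1d17. Il10, Il12b and Il19 had 6, 7 and 12 counts in KO3 and at most 2 in any other library.

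At the thresholds of the study (adjusted p under 0.01, more than 2-fold, and an FPKM over 1 as the mean of either genotype), 4 members were called higher (Il1rn, Il33, Cx3cl1 and Cxcr6) and 1 lower (Il11ra1), where 1.50% and 2.08% of all genes were called. At an adjusted p under 0.05, 11 of 55 members were higher and 8 were lower, where 16.4% and 16.6% of all genes were called. The 11 comprised 6 ligands (Ccl2, Ccl9, Cx3cl1, Il33, Il6 and Il7), 3 receptors (Cxcr6, Il18rap and Il6ra), Il1rn and Il13ra2. The 8 comprised 2 ligands (Ccl28 and Cxcl12), 5 receptors (Il11ra1, Il1r1, Il1rl2, Il15ra and Il17rd) and Il4i1. All knockout libraries lay above all WT libraries for 17 of the 55, against 26.6% of all genes tested, and below them for 10, against 28.2%. The counts depended on single libraries. Leaving out WT1, WT2, WT3, KO1 or KO2 left 0 members higher at the thresholds of the study. Leaving out a WT library left 4 or 5 higher and 3 lower at an adjusted p under 0.05 by edgeR. Over all genes the calls at that threshold fell too, from 4413 with all libraries to 1947, 1615 and 1396 without WT1, WT2 and WT3. The drop was thus not particular to the members. Cx3cl1, Cxcr6, Il1rn, Il33, Il11ra1, Il1r1 and Il4i1 kept an adjusted p under 0.05 whichever library was left out, and the other called members lost it in at least 1 case. The median log2 fold change was 0.48 over the members and -0.00032 over all genes. By role it was 2.08 for 11 CC chemokines, 0.88 for 9 interleukins and -0.01 for 18 interleukin receptors. The medians of these roles without KO3 were 0.18, 0.7 and -0.11, so the value of the CC chemokines rested mostly on KO3.

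Without KO3, 15 members were higher and 12 were lower at an adjusted p under 0.05 by edgeR, where 23.9% and 24.2% of 13529 genes were called. All 11 and all 8 remained, and Ccl7, Ccl8, Cxcl16 and Il1rl1 were added among the higher and Ccl11, Cxcl5, Il17ra and Il27ra among the lower. The median over the members was then 0.10. At the thresholds of the study 6 were higher (Il13ra2, Il1rn, Ccl2, Cxcr6, Il33 and Il6) and 2 lower (Cxcl5 and Il11ra1). Cx3cl1 lost its call at these thresholds, since its change fell under 2-fold. The share over all genes at these thresholds was not taken without KO3.

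**Figure D3:**
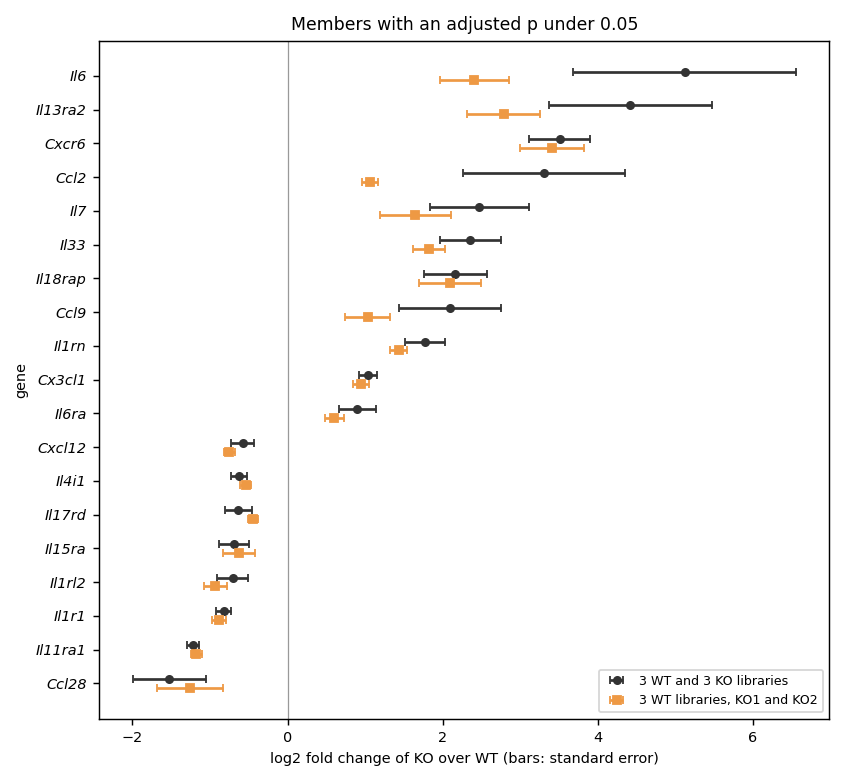
Fitted log2 fold change of KO over WT with its standard error for the 19 members with an adjusted p under 0.05, from all libraries (black circles) and without KO3 (orange squares). For Il6, Il13ra2 and Ccl2 the value drops and the standard error shrinks without KO3, while for Cxcr6, Cx3cl1, Il11ra1 and Il1r1 both values lie close together.

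The rise in KO3 was spread unevenly over the members. The summed CPM of the members was 1455 higher in KO3 than the mean of KO1 and KO2. Of the summed positive differences, Ccl2 made up 30.9%, Ccl7 14.2%, Cxcl1 10.1% and Cxcl5 8.33%, which is 63.5% for these 4 genes. Per kilobase, Ccl2 moved from rank 6 in WT (26.62 CPM per kb) to rank 1 in KO3 (678.5 CPM per kb), Cxcl1 from rank 16 to rank 3, and Ccl20 from rank 80 to rank 9. Among receptors, Il6st kept a rank near the top, with 63.72 CPM per kb in WT and 72.1 CPM per kb in KO3.

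**Figure D4:**
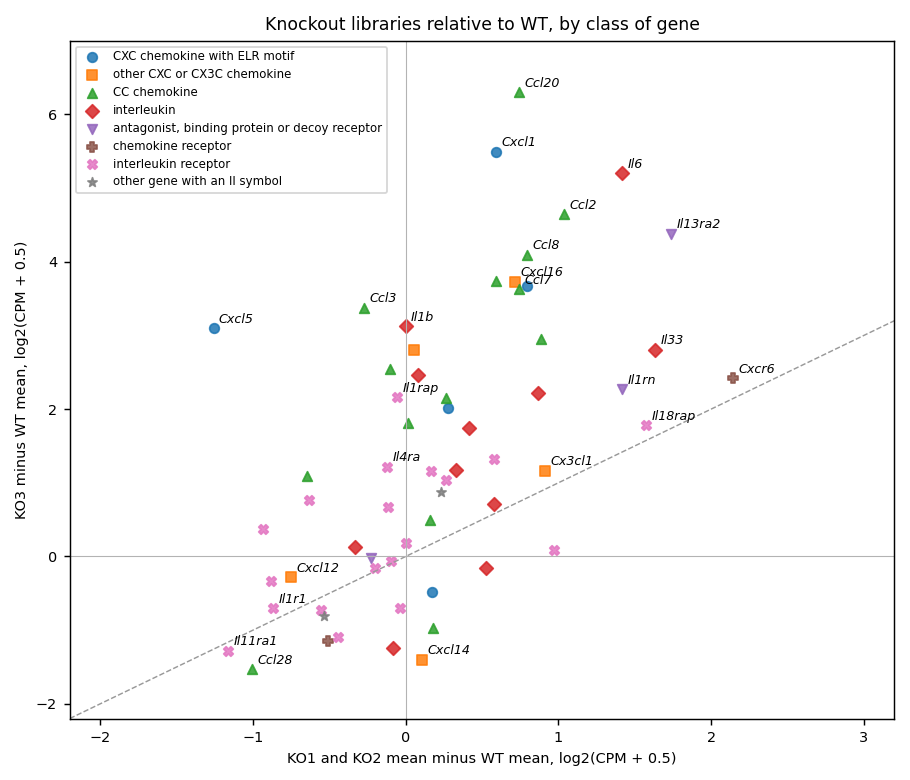
Each of 61 members is placed by the difference of KO1 and KO2 from WT (x axis) and of KO3 from WT (y axis), both on log2(CPM + 0.5), with marker shape and colour for the role and a dashed line of equal difference; both axes share the WT libraries, so no correlation is given. Ccl20, Cxcl1 and Il6 lie far above the line, Cxcl5 lies left of 0 on x and above 0 on y, and Cxcr6, Cx3cl1, Il1r1 and Il11ra1 lie near the line.

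Many of the members high in KO3 are neighbours in the genome (GRCm38), but clusters are common among members, holding 37 of all 103. In the cluster at chr11:82035571-82116799, all of Ccl2, Ccl7, Ccl11, Ccl12 and Ccl8 were more than 2-fold higher in KO3 than in KO1 and KO2. Their summed level was 43.45 to 45.76 CPM in WT, 90.16 and 76.68 CPM in KO1 and KO2, and 845.9 CPM in KO3. In the cluster at chr11:83525778-83664683, the same held for Ccl5, Ccl9, Ccl6, Ccl3 and Ccl4, with a sum of 3.233 to 6.693 CPM in WT, 10.45 and 5.651 CPM in KO1 and KO2, and 53.49 CPM in KO3. In the CXC cluster at chr5:90759360-90905938, 4 of 5 genes did so, and Cxcl15, which lies between Cxcl3 and Cxcl1, did not. The IL-1 receptor cluster at chr1:40074079-40551705 held no such gene among Il1r2, Il1r1, Il1rl2, Il1rl1, Il18r1 and Il18rap, and its members went in different directions, with Il1r1 and Il1rl2 lower and Il18rap higher. In the cluster at chr9:123678439-124147699, Cxcr6 was the only one of 6 receptor genes that was called.

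**Figure D5:**
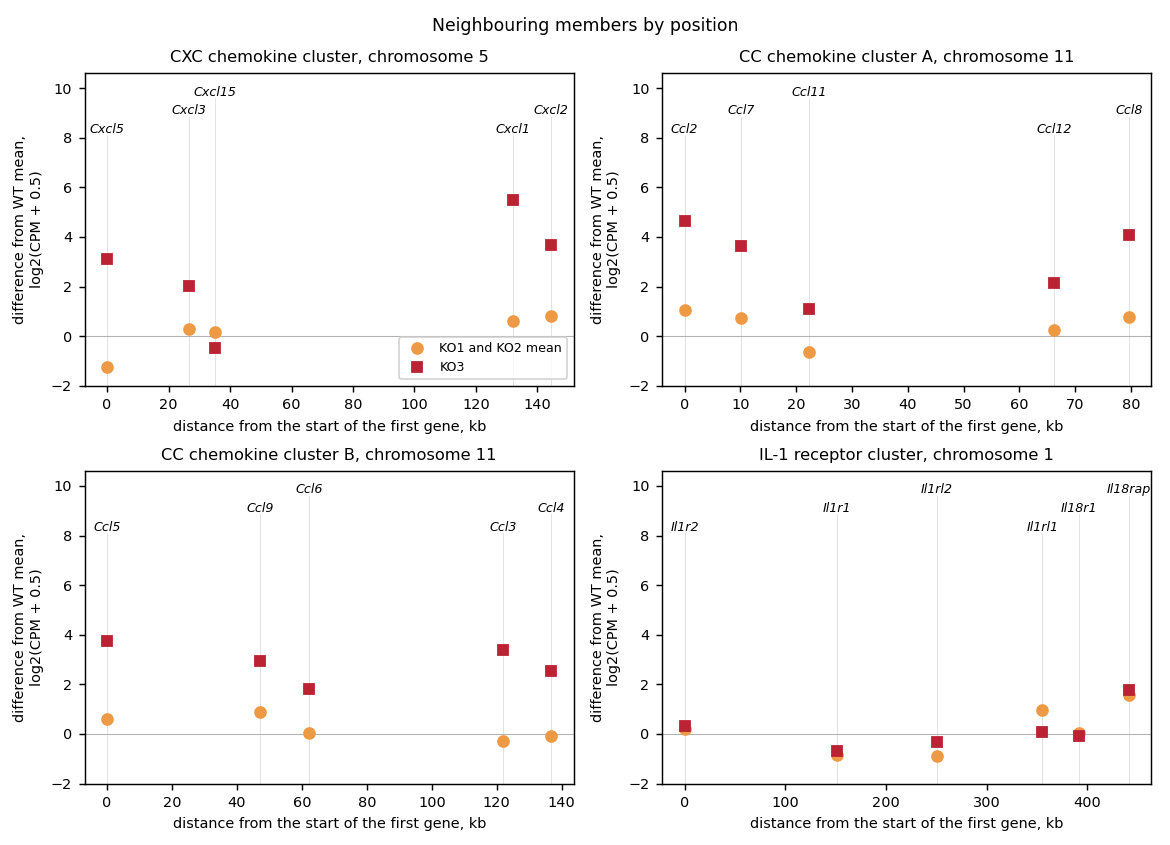
Difference from the WT mean on log2(CPM + 0.5) against the distance in kb from the start of the first gene, for 4 clusters of neighbouring members (orange circles KO1 and KO2 mean, red squares KO3). In the 3 chemokine clusters KO3 lies above KO1 and KO2 for 14 of 15 genes, Cxcl15 being the exception, and in the IL-1 receptor cluster both lie near each other for most genes.

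Genes that act with these ligands and receptors but carry other symbols were read from a fixed list, of which 61 were tested. At an adjusted p under 0.05, 15 were higher and 6 lower, and 14 of 64 with at least 1 CPM in a library had KO3 more than 2-fold above KO1 and KO2. Over all genes these shares were 16.4%, 16.6% and 4.43%, which also stand as background for the lists that follow. Of the NF-kB genes, 5 of 15 were higher and 0 lower, and 8 had KO3 above. Among them, Nfkbia, the inhibitor that NF-kB itself induces, had 34.9 to 36.88 CPM in WT, 40.0 and 39.69 CPM in KO1 and KO2 and 169.3 CPM in KO3. Tnfaip3, a brake on the same pathway, had 4.555 to 5.506 CPM in WT and 11.41, 10.02 and 40.01 CPM in KO (log2 fold change 2.0, SE 0.552, adjusted p = 0.0342, edgeR, and 1.06 without KO3). Whether these genes and the chemokines share a cause was not tested.

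Of the 4 tested chemokine partners 2 were higher. Ackr3, an atypical receptor that takes up CXCL12, had 49.73, 52.26 and 53.19 CPM in WT and 90.83, 93.92 and 93.11 CPM in KO, with all knockout libraries close together (log2 fold change 0.84, SE 0.0658, adjusted p = 0.00178, edgeR). Ackr4 had a log2 fold change of 0.95 (adjusted p = 0.0259, edgeR). Of 17 JAK, STAT and SOCS genes 2 were higher and 4 lower, and Socs2, a feedback inhibitor of cytokine signalling, had 38.63 to 41.36 CPM in WT and 16.05 to 18.99 CPM in KO (log2 fold change -1.20, SE 0.0921, adjusted p = 0.00178, edgeR). Of 13 genes of the IL-6 and haematopoietin families 3 were higher and 1 lower, and Lif, the cytokine used to keep mouse stem cells pluripotent, had 5.753 to 7.118 CPM in WT and 10.98, 11.3 and 45.01 CPM in KO (log2 fold change 1.83, adjusted p = 0.0498, edgeR, and 0.82 without KO3). Of 12 IL-1 signalling genes 3 were higher and 1 lower, among them Irak2 (log2 fold change 1.46, or 1.01 without KO3, adjusted p = 0.0166 with it) and Tab1 (log2 fold change -0.60, adjusted p = 0.00733, both edgeR).

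Macrophages and other blood cells are rich sources of the same ligands, so their markers were read beside them. The 16 macrophage markers, all tested and with 0 called by edgeR at an adjusted p under 0.05, summed to 91.47, 170.8 and 147.2 CPM in WT, 134.7 and 92.59 CPM in KO1 and KO2, and 307 CPM in KO3. KO3 was more than 2-fold above KO1 and KO2 for 6 of them. Lyz2 had 25.53 to 58.0 CPM in WT and 49.07, 26.4 and 158.6 CPM in KO, and Adgre1 had 1.759 to 4.272 CPM in WT and 4.057, 2.564 and 31.91 CPM in KO. In KO3, 10 of the 16 lay above every WT library, among them Cd14 (25.39 CPM, against 3.946 to 6.169 in WT), Csf1r (12.19 CPM, against 5.467 to 7.832), Fcer1g (10 CPM, against 1.189 to 2.421), Itgam (6.334 CPM, against 1.044 to 1.946) and Ptprc (4.906 CPM, against 1.141 to 3.085). In contrast, 3 lay below every WT library, namely C1qa (3.715 CPM, against 4.089 to 8.259 in WT), Laptm5 (19.86 CPM, against 21.35 to 22.92) and Mrc1 (1.905 CPM, against 5.8 to 17.75). C1qb and Cd68 had 8.906 and 8.573 CPM in KO3, within their WT ranges of 5.277 to 12.67 and 6.703 to 10.49 CPM. The part of these cells in the KO3 values was not tested. The markers of neutrophils and mast cells (5 of 8 listed) summed to 0.3797 to 0.9983 CPM, and those of T and B lymphocytes (3 of 7 listed) to 0 to 0.4763 CPM. The epithelial markers summed to 46.75 to 51.25 CPM in WT, 41.86 and 29.39 CPM in KO1 and KO2, and 5.334 CPM in KO3. The endothelial markers summed to 32.29 CPM in KO3 and 48.59 to 67.25 CPM elsewhere. Most of this sum was the single gene Tek (30.77 CPM in KO3 and 46.64 to 64.53 CPM elsewhere). Pecam1 went the other way, with 0 to 2 counts in WT and 10 or 11 in KO. The 4 reprogramming factors summed to 1911 to 2251 CPM in WT and 1656, 1436 and 1927 CPM in KO.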

How the data were processed

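RNA-seq of 3 WT and 3 Rnf20 knockout libraries of mouse reprogrammable cells on day 3 of OSKM reprogramming was analysed. Groups and replicate numbers were taken from the sample labels. The members and the gene lists were chosen with earlier results of these data known.

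The authors prepared poly(A)-selected libraries with a stranded kit and used HISAT2 2.1.0 to align the read pairs to the GRCm38/mm10 genome. They deposited raw counts per gene (whole numbers, not normalized), and the counting program and its strand setting are not given in the sources used here. The authors also deposited FPKM values from Cufflinks 2.1.1 for 12633 genes, 44 of them members. That table further holds the authors' own log2 fold changes and adjusted p-values, which were not used. The counts of the 12633 genes are identical in both tables.

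Counts were analysed with edgeR 4.0.16 in R 4.3.3 (TMM, filterByExpr, quasi-likelihood test without covariates, Benjamini-Hochberg adjustment over 13386 genes). The SE of a log2 fold change was taken as its size over the root of the F statistic. The thresholds of the study were an adjusted p under 0.01, a log2 fold change over 1 in size and an FPKM over 1, read here as the mean of WT or of KO. On simulated counts of 13299 genes with 200 changed, 99.5% of these were called, with 0 false calls. The share that would be called in the libraries used here, with KO3 apart from its group, was not tested. Alternatives replaced TMM (RLE or no factors), the test (DESeq2 1.42.0 or the exact test of edgeR) or the filters, added the replicate number as a block, or left out each library in turn. Intervals and the floor of 3 counts cover counting error only, since PCR duplicates cannot be told apart.

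All 103 members were matched by Ensembl identifier to GENCODE M21 (GRCm38), and 26 have exons overlapped by another gene. Neighbours were members within 500 kb of each other, in clusters of 3 or more. Promoter sequences are from RefSeq (GRCm38.p6). Members were named if they were called, if KO3 lay more than 2-fold from KO1 and KO2, if they were among the 20 highest per kilobase, or if they belonged to a listed ligand and receptor pair. A result under this naming is not reported here. Partner genes and markers were named by the 5 smallest p-values in each list, and Nfkbia, Lyz2 and the other markers given beside the results were chosen after their values were seen.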

Additional observations from a re-analysis of the deposited data

How the results depend on the processing

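The counts of called members are given in the order lower and higher at the thresholds of the study (1 and 4 in the report), then at an adjusted p under 0.05 (8 lower and 11 higher). EdgeR's exact test gave 9 higher at the thresholds of the study. RLE size factors, library size only, DESeq2 and the other filters left each of the 4 counts within 1.5 times. Leaving out 1 library gave 0 to 2, 0 to 6, 3 to 12 and 4 to 18. The lowest counts came without a WT library (0, 0, 3 and 5 without WT1, the same without WT2, and 0, 0, 3 and 4 without WT3). Calls over all genes at an adjusted p under 0.05 were then 1947, 1615 and 1396, against 4413 with all libraries (edgeR). Without KO1 the counts were 1, 0, 4 and 13, without KO2 they were 1, 0, 5 and 18, and without KO3 they were 2, 6, 12 and 15. The matching calls over all genes at an adjusted p under 0.05 were 3748, 3254 and 6510 (edgeR). Some settings gave 0 higher members at the thresholds of the study. In these, 7 to 9 lower and 11 to 21 higher members still had an unadjusted p under 0.05 by edgeR. Cx3cl1, Cxcr6, Il1rn, Il33, Il11ra1, Il1r1 and Il4i1 kept an adjusted p under 0.05 in all 13 alternatives.

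Genotypes share replicate numbers, but same-numbered libraries did not deviate together (correlations -0.0656, 0.0366 and 0.0109), and WT1 correlated best with KO3, so the numbers were not taken as pairs. With the replicate block the counts were 0, 0, 5 and 6, and Ccl11 turned to -0.175. Over all genes 2875 were then called at an adjusted p under 0.05 by edgeR.

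The log2 fold changes that turned without KO3 ranged, over the libraries left out, from the value without KO3 to the other end as follows: Ccl11 from -1.28 to 0.761, Cxcl5 from -1.29 to 2.21, Ccl3 from -0.559 to 3.25, Ccl4 from -0.177 to 2.6, Ccl6 from -0.155 to 1.56, Il1rap from -0.0561 to 1.49, Il4ra from -0.122 to 0.733, Ccl27a from 0.226 to -0.887 and Cxcl14 from 0.101 to -0.475. Ccl27a also turned without WT3 (0.100). The cause was not tested. Over all alternatives 494 single-gene values kept direction and side of the threshold, 55 lost it, 24 gained it and 11 turned. Library size alone moved the median of all genes to -0.06. Depth limits the 36 members with no library above 10 counts.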
